A study of Saccharomyces cerevisiae BY4741 with 4 samples.

Results

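The genes described here encode the machinery that forms the 3′ ends of mRNAs and the machinery that degrades RNA in budding yeast. They are 57 genes chosen by function from a list of systematic names, out of 5038 genes with a level in both libraries, and all 57 were present with both levels. The measurement was trimethylation of histone H3 at lysine 4 (H3K4me3), taken by chromatin immunoprecipitation and sequencing of nuclei treated with micrococcal nuclease. The deletion strain, BY4741-spp1Δ, has SPP1 replaced by the drug resistance cassette KanMX6. It was set against wild-type BY4741, a MATa strain with his3Δ1, leu2Δ0 and ura3Δ0. Both grew in glucose medium to log phase, and cells of Schizosaccharomyces pombe served as a spike-in. Each strain gave 1 H3K4me3 library, and the differences below therefore have neither a replicate error nor a test. The sources used here give no read depth and do not say whether the deletion strain was 1 clone.

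H3K4me3 is laid down at the start of transcribed genes by COMPASS, whose PHD finger subunit is encoded by SPP1. When RNA polymerase II reaches the end of a gene, the cleavage and polyadenylation factor (CPF) and cleavage factor I (CF I) cut the transcript and add its poly(A) tail, while Nrd1, Nab3 and Sen1 end short non-coding transcripts. The exosome degrades RNA from its 3′ end in the nucleus and the cytoplasm. In the cytoplasm the Ski complex feeds it, and the Ccr4-Not and Pan complexes shorten poly(A) tails. Decapping factors and Xrn1 then open the 5′ route, and the Upf proteins send mRNAs with early stop codons into decay.

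The design asks how H3K4me3 levels compare with and without Spp1. SPP1 itself, read as a check of the strain label, had a level of 0.0982 in the spp1 library and 1.89 in the wild-type library. Levels are normalised values as the authors deposited them, and their scale was taken as linear. Over all 5038 genes the median level was 0.494 in spp1 and 2.01 in wild type. No source used here says whether a level is divided by gene length. Each gene is therefore described by its spp1 level as a percent of its own wild-type level, in which such a division cancels. Across all genes with a known length, this percent still had a Spearman correlation of -0.11 with length. The wild-type level had a Spearman correlation of 0.12 with gene length, over the 4938 genes with both levels and a known length.

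The 57 genes carried less H3K4me3 in spp1 than in wild type without exception, which did not set them apart. With chromosome IV's left arm set aside, none of 4826 genes exceeded 91.7% of its wild-type level. The median ratio of the 57 was above that of all genes. Their median level was 0.750 in spp1 and 2.26 in wild type, and the median gene among them kept 32.5% of its wild-type level, against 26.3% over all genes. The middle 50% of the members lay between 23.6% and 38.4%, and the middle 50% of all genes between 20.8% and 34.1%. On the log2 scale the member median was -1.62 and the all-gene median -1.93, a difference of 0.30. Of the members, 37 of 57 lay above the all-gene median ratio, which 50% of all genes do by construction. A level below 25% of wild type was found for 17 of 57 members (29.8%), against 44.6% of all genes. That cut lies within the bulk of the values, and the counts move with it and with the scale: below 20% lay 5 of 57 members (8.77%) and 21.6% of all genes. With 10% of the median wild-type level added to both levels, 1 member (1.75%) and 8.30% of all genes lay below 25%. With library totals set equal, 0 members and 0.0992% of all genes did. At the other end, 1 of 57 members kept 50% or more, against 6.17% of all genes, so the share of members was below that of all genes beyond both cuts. The members nearest the 25% line were PAN3 at 24.6% and PTI1 at 25.1%.

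**Figure D1:**
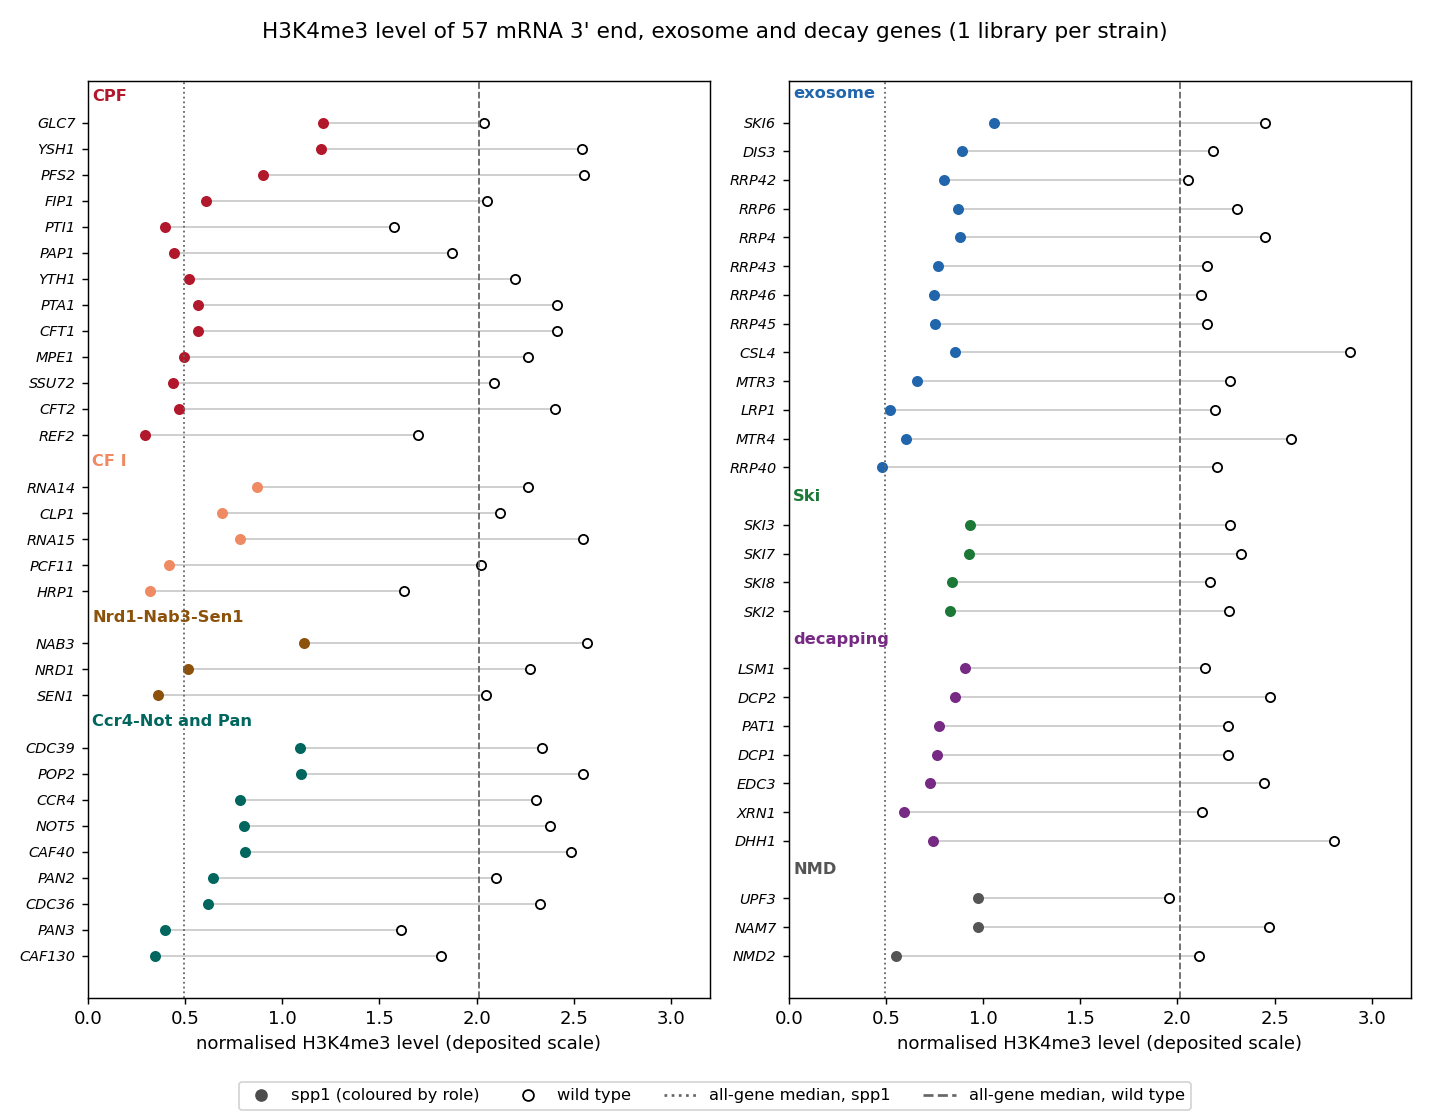
Each row is 1 gene, with its normalised H3K4me3 level in spp1 (filled, coloured by role) and in wild type (open) on the deposited scale; dotted and dashed lines are the all-gene medians in spp1 (0.494) and wild type (2.01). Every filled point lies left of its open point, and the filled points range from 0.295 (REF2) to 1.21 (GLC7).

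These genes were well marked in wild type, which bears on the comparison with all genes. Of the 57 members, 50 lay above the all-gene median wild-type level, and when all genes were sorted into 5 equal classes by that level, 0 members lay in class 1, the lowest, and 23 in class 5. Across the genome the median percent of wild type was 24.9% in class 1, 22.2% in class 2, 25.6% in class 3, 28.4% in class 4 and 30.7% in class 5. Set beside the median of all genes in the same class, the members lay 0.17 higher on the log2 scale in place of 0.30, and 36 of 57 lay above it. The 20 members in class 4 had a median of 34.0%, and the 23 in class 5 one of 33.9%. The direction also rests on using ratios. The plain difference of levels, spp1 minus wild type, had a median of -1.49 over members and -1.43 over all genes, so in absolute terms the median member lost slightly more of the mark.

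**Figure D2:**
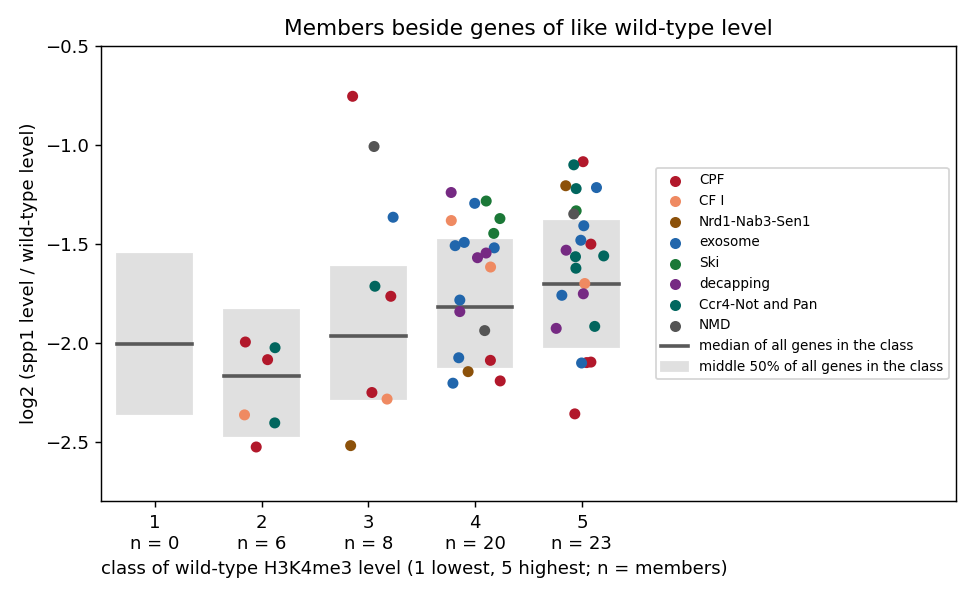
The log2 ratio of the spp1 level to the wild-type level (vertical axis) is shown for each member (points, coloured by role) in 5 classes of wild-type level over all genes (horizontal axis, lowest to highest). Grey boxes hold the middle 50% of all genes in each class and dark bars their medians, from -2.17 in class 2 to -1.70 in class 5; in classes 2 to 5 members lie on both sides of the bar.

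The genes of the CPF, the enzyme complex that cuts and polyadenylates pre-mRNA, mostly lay below the all-gene median ratio. Of its 13 genes, 8 (61.5%) lay below 25% of wild type, against 44.6% of all genes. Below 20% lay 2 of 13 (15.4%), against 21.6% of all genes, so the direction turned with the cut. The group median was 23.5%, and 4 of 13 (30.8%) lay above the all-gene median ratio. Set beside all genes of the same class of wild-type level, 6 of 13 lay above the class median, with a median difference of -0.27 on the log2 scale. With means in place of medians, CPF minus all genes was -0.023. YSH1 (YLR277C, chromosome XII, 697156 to 699495), the endonuclease that makes the cut, stood apart with 1.20 in spp1 and 2.54 in wild type, or 47.1%. Its partners in the nuclease module were lower. CFT2 (YLR115W), a catalytically inactive relative of Ysh1, had levels of 0.469 in spp1 and 2.41 in wild type, or 19.5%. MPE1, a RING finger protein that activates cleavage, had 0.495 in spp1 and 2.26 in wild type, or 21.9%. The 3 genes of this module thus differed widely among themselves.

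In the polymerase module, 3 genes lay within a narrow band. CFT1 (YDR301W), a large scaffold subunit, lay at 23.3%, the zinc finger gene YTH1 at 23.5% and the poly(A) polymerase gene PAP1 at 23.6%. PAP1 (YKR002W) had 0.442 in spp1 and 1.87 in wild type, with a wild-type level below the all-gene median. FIP1, which tethers the polymerase, lay at 29.4%, and PFS2, a WD40 scaffold gene, at 35.3% with 0.901 in spp1 and 2.55 in wild type. The remaining CPF genes belong to the phosphatase module. REF2 (YDR195W, chromosome IV, 848599 to 850200), which recruits the phosphatase Glc7 to CPF, had 0.295 in spp1 and 1.70 in wild type. At 17.4% it had the lowest ratio of all 57 genes. The polymerase II phosphatase gene SSU72 lay at 21.0%, the symplekin homologue PTA1 (YAL043C) at 23.4% and PTI1 at 25.1%.

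GLC7 (YER133W, chromosome V, 432495 to 433958) lay at the opposite end of the same module. It encodes the catalytic subunit of protein phosphatase 1, which also acts in glycogen metabolism and mitosis, outside 3′ end formation. Its level was 1.21 in spp1 and 2.04 in wild type, or 59.3%, the highest ratio of the 57 genes and above 97.0% of all genes. REF2 and GLC7, whose products act together, thus marked both ends of the range. Without GLC7 the members lay 0.26 above the all-gene median, in place of 0.30.

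CF I genes, whose products bind the RNA upstream of the cut site, were divided. RNA14 (YMR061W) had 0.868 in spp1 and 2.26 in wild type, or 38.4%, CLP1 lay at 32.6% and RNA15, whose product binds A-rich RNA, at 30.8%. PCF11 (YDR228C), which contacts the polymerase tail, had 0.415 in spp1 and 2.02 in wild type, or 20.5%. HRP1 had 0.316 in spp1 and 1.63 in wild type, or 19.4%. Thus 3 of 5 (60%) lay above the all-gene median ratio, against 50% of all genes, and 2 (40%) below 25%, against 44.6%. Both shares were near those of all genes. No CF I gene lay between 20.5% and 30.8%. The termination genes of the Nrd1 complex showed a like spread. SEN1 (YLR430W, chromosome XII, 993434 to 1000129), a helicase gene, had 0.358 in spp1 and 2.05 in wild type, and its 17.4% was second only to REF2 among low ratios. NRD1 lay at 22.6%, and NAB3 (YPL190C), an RNA-binding partner of Nrd1, lay far higher with 1.11 in spp1 and 2.57 in wild type, or 43.3%.

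**Figure D3:**
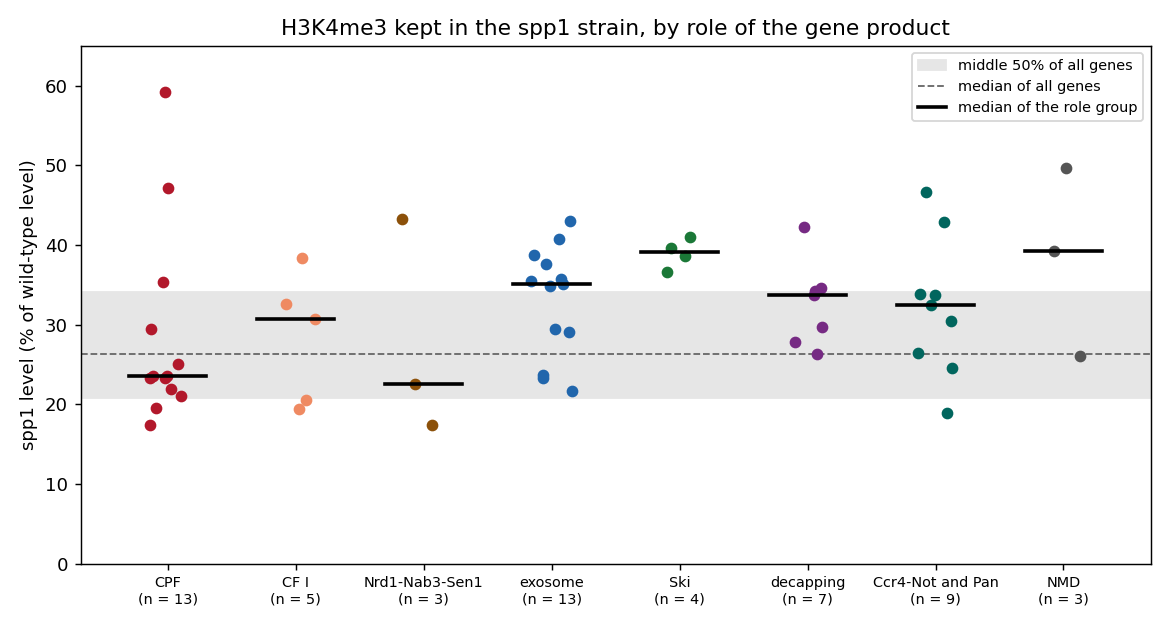
The spp1 level as a percent of the wild-type level (vertical axis) is shown for each gene by role (horizontal axis), with black bars at group medians, a dashed line at the all-gene median (26.3%) and grey shading over the middle 50% of all genes. CPF genes crowd below the dashed line with GLC7 and YSH1 far above it, while Ski genes sit together near 39.2%.

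Exosome genes kept more of the mark than CPF genes, with a group median of 35.1% against 23.5%. Both groups had 13 genes and nearly the same median wild-type level (2.21 for the exosome, 2.20 for CPF), while their median spp1 levels were 0.765 for the exosome and 0.517 for CPF. The difference of the medians was 0.58 on the log2 scale. Of the exosome genes, 11 of 13 lay above the CPF median, and of the CPF genes 3 of 13 lay above the exosome median. The difference was 0.28 with means in place of medians. This contrast was picked out after the values were seen.

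Within the exosome, the 6 genes of the ring all lay above the all-gene median ratio. SKI6 (YGR195W, chromosome VII, 888882 to 889622), the ring subunit also known as Rrp41, had 1.05 in spp1 and 2.45 in wild type, or 43.1%. RRP43 lay at 35.5%, RRP46 at 35.1%, RRP45 at 34.9% and MTR3 at 29.0%. RRP43, RRP45 and RRP46 were close in both libraries, with spp1 levels from 0.746 to 0.765 and wild-type levels from 2.12 to 2.15. RRP42 lay at 38.8%, on the left arm of chromosome IV. DIS3 (YOL021C), the catalytic subunit, had 0.890 in spp1 and 2.18 in wild type, or 40.7%. The 3 genes of the RNA-binding cap differed more. RRP4 lay at 35.8%, CSL4 at 29.5% and RRP40 (YOL142W) at 21.7%, the lowest of the group, with 0.479 in spp1 and 2.21 in wild type. CSL4 (YNL232W, chromosome XIV, 214923 to 215801) had the highest wild-type level of all 57 genes, 2.89, against 0.852 in spp1. Of the nuclear partners, the exonuclease gene RRP6 lay at 37.7%. The helicase gene MTR4 (YJL050W) had 0.602 in spp1 and 2.58 in wild type, or 23.3%, and LRP1, which encodes a partner of Rrp6, lay at 23.7%. RRP6 and LRP1, whose products form a pair, were thus on opposite sides of the all-gene median.

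The Ski genes were the most alike of the groups with more than 3 genes. SKI2 (YLR398C), the helicase of the complex, had 0.830 in spp1 and 2.26 in wild type, or 36.7%. The scaffold gene SKI3 (YPR189W) had 0.933 in spp1 and 2.27 in wild type, or 41.1%. SKI7, which bridges the complex to the exosome, lay at 39.7% and the WD40 gene SKI8 at 38.6%. All 4 lay above the all-gene median, and the standard deviation of their log2 ratios was 0.069. It was 0.32 over 13 exosome genes, 0.51 over 13 CPF genes and 0.55 over all genes, or 0.52 without the left arm of chromosome IV. The Ski value rests on only 4 genes and was singled out for its small spread. The 4 genes lie on 4 chromosomes and range in length from 1194 to 4299 bases.

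Decapping and 5′ decay genes lay mostly above the all-gene median, with 6 of 7 (85.7%) on that side, against 50% of all genes. Their group median was 33.7%. All 7 also lay above the all-gene median wild-type level. Set beside genes of the same class of wild-type level, 4 of 7 lay above the class median, with XRN1, EDC3 and DHH1 below it. DCP2 (YNL118C), the decapping enzyme, had 0.856 in spp1 and 2.48 in wild type, or 34.6%. Its cofactor DCP1 lay at 33.7% and the activator gene PAT1 at 34.2%, so that these 3 differed by less than 1 percentage point. LSM1 (YJL124C), a subunit of the ring that binds shortened mRNA tails, was higher, with 0.905 in spp1 and 2.14 in wild type, or 42.3%. The enhancer of decapping gene EDC3 lay at 29.7% and the exonuclease gene XRN1 at 27.9%. DHH1 (YDL160C, chromosome IV, 170410 to 171930), a helicase gene, had 0.738 in spp1 and the second highest wild-type level of the members, 2.81. At 26.3% it lay just under the all-gene median.

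The deadenylation genes ranged from 18.9% to 46.6%, with 7 of 9 above the all-gene median ratio. CDC39 (YCR093W, chromosome III, 280117 to 286443), the Not1 scaffold of the Ccr4-Not complex, had 1.09 in spp1 and 2.34 in wild type, or 46.6%. POP2, a deadenylase gene also known as CAF1, had 1.09 in spp1 and 2.55 in wild type, or 42.9%. CCR4 (YAL021C), the main deadenylase, lay at 33.9%, NOT5 at 33.8% and CAF40 at 32.5%. These middle members differed by less than 2 percentage points, and their wild-type levels lay between 2.31 and 2.49. CDC36, the Not2 gene, lay at 26.5%. CAF130 (YGR134W) had 0.343 in spp1 and 1.82 in wild type, or 18.9%, the third lowest ratio of the 57. The nuclease gene PAN2 lay at 30.5%, and its partner PAN3 had 0.396 in spp1 and 1.61 in wild type, or 24.6%.

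Nonsense-mediated decay genes held the second highest ratio of the members. UPF3 (YGR072W, chromosome VII, 634304 to 635467) had 0.972 in spp1 and 1.96 in wild type, or 49.7%. NAM7 (YMR080C), the Upf1 helicase gene, had 0.971 in spp1 and 2.47 in wild type, or 39.3%. NMD2, the Upf2 gene, had 0.551 in spp1 and 2.11 in wild type, or 26.1%, just under the all-gene median. The spp1 levels of UPF3 and NAM7 were thus nearly equal although their wild-type levels were not.

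The role groups were also joined into CPF, CF I and Nrd1-Nab3-Sen1 on one side and Ski, decapping, deadenylation and Upf genes on the other, a split made after the values were seen. The 13 exosome genes, of a complex that acts in both compartments, were in neither, and GLC7 was counted with CPF. RRP6, MTR4 and LRP1, which encode nuclear partners of the exosome, were left out with that group. The other role groups were placed whole, and whether their products also act in the other compartment was not considered. The 23 cytoplasmic decay genes had a median of 33.9% and the 21 genes of nuclear 3′ end formation and termination one of 23.5%. Below 25% lay 2 of 23 cytoplasmic decay genes (8.70%) and 12 of 21 nuclear 3′ end genes (57.1%), against 44.6% of all genes. At a cut of 20% the counts were 1 of 23 (4.35%) and 4 of 21 (19.0%), against 21.6% of all genes. The nuclear share was thus above that of all genes at 25% and below it at 20%. At both cuts the cytoplasmic share was the one farther from that of all genes. Set beside genes of the same class of wild-type level, 17 of 23 cytoplasmic and 10 of 21 nuclear genes lay above the class median. The median spp1 level was 0.804 for the cytoplasmic and 0.517 for the nuclear genes, and the median wild-type level was 2.27 for the cytoplasmic and 2.20 for the nuclear genes. The groups overlapped: 22 of 23 cytoplasmic genes lay above the nuclear median, and 5 of 21 nuclear genes lay above the cytoplasmic median. The difference of the medians was 0.53 on the log2 scale and 0.33 with means in place of medians.

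**Figure D4:**
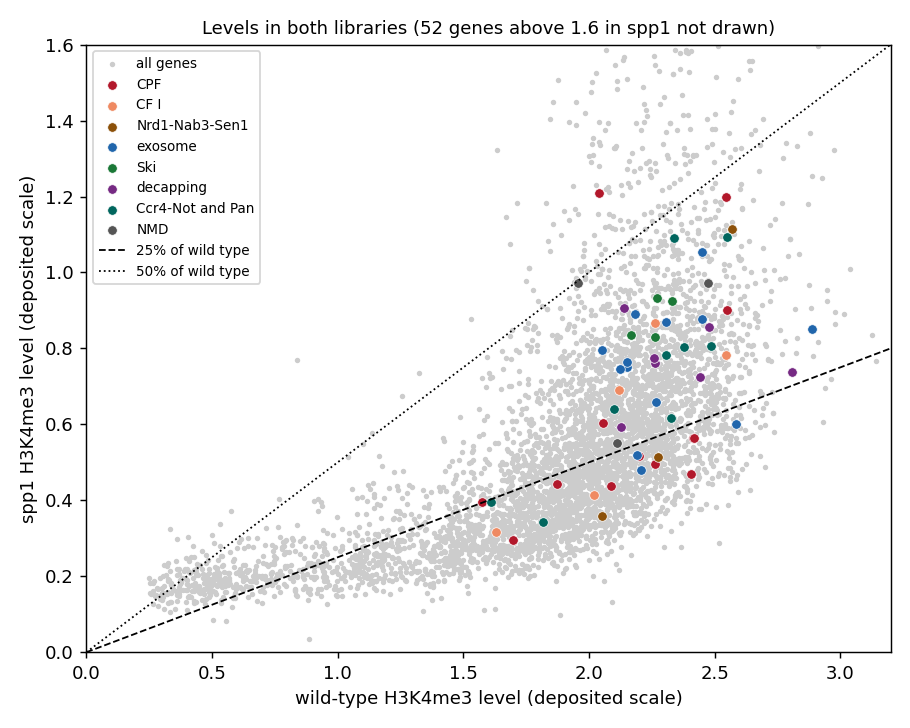
Each point is a gene, with its wild-type level on the horizontal axis and its spp1 level on the vertical axis, both on the deposited scale; members are coloured by role and all genes are grey, with 52 genes above 1.6 in spp1 not drawn. Lines mark 25% and 50% of wild type; GLC7 alone among the members lies above the 50% line, and 17 members lie below the 25% line.

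A list of 30 other genes of 3′ end formation, RNA decay and surveillance showed a like median. Of these, 26 had both levels, AIR1 and NOT3 on chromosome IX had a wild-type level only, and SWD2 and EDC1 were not analysed here. Their median lay at 32.6% of wild type, 0.31 above all genes on the log2 scale. Of the 26, 18 (69.2%) lay above the all-gene median, against 50% of all genes. Below 25% lay 5 of 26 (19.2%), against 44.6% of all genes. The highest ratio was that of PAB1, the poly(A)-binding protein gene, with 1.27 in spp1 and 2.27 in wild type, or 55.9%. SYC1, a CPF gene outside the 57, was the lowest at 16.6%. The split by role among the members was not repeated throughout this list. Its 5 genes of 3′ end formation and termination had a median of 32.8%, with 4 above the all-gene median. The 21 nuclear 3′ end members had one of 23.5%. The 10 listed decapping and LSM genes had a median of 28.5%, with 6 above the all-gene median. The 4 listed deadenylation genes had one of 42.6%, with all 4 above. RAT1, the nuclear exonuclease that follows the cut, had 0.841 in spp1 and 2.57 in wild type, the list maximum.

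The surroundings of the members on the chromosomes were described as well. None of the 57 overlapped another annotated gene, against 1.97% of all genes, none had levels identical to those of another gene, and none had another member as its upstream neighbour. The nearest protein-coding gene upstream was divergent for 33 members, with a median of 30.5% of wild type, and tandem for 24, with a median of 33.1%. Over all genes these medians were 26.8% and 25.9%. Among the members the log2 ratio had a Spearman correlation of 0.11 with that of a divergent neighbour (30 pairs) and 0.045 with that of a tandem one (20 pairs), all pairs sharing the same libraries. Where the upstream gene of an extreme member had a level, its ratio was another than that of the member. Downstream genes were not looked at. PMD1, divergent from GLC7 across 2045 bases, lay at 17.3%, and YLR278C, upstream of YSH1, at 18.3%. ENV11, divergent from UPF3 across 240 bases, lay at 32.6%, and CRN1, upstream of SEN1, at 38.8%. The upstream genes of REF2 and CAF130 were not analysed here. Across the 57 genes the log2 ratio had a Spearman correlation of 0.28 with the wild-type level, which is also the denominator of the ratio. With gene length the correlation was -0.021. Over all genes the log2 ratio had correlations of 0.22 with the wild-type level and -0.11 with gene length.

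Facts of the libraries touch a few of these genes. On the left arm of chromosome IV the log2 ratios of 212 genes had a standard deviation of 1.06, against 0.52 over the genes elsewhere. RRP42, DHH1 and CDC36 lie there, and what part the arm has in their values was not tested. Without that arm, 54 members had a median log2 ratio of -1.62, and 35 of 54 lay above the all-gene median. Every percent of wild type depends on how the authors scaled one library against the other. When totals were set equal, by dividing a library by the sum of its levels, the median log2 ratio of the members was 0.14, while their difference from all genes and the differences between roles did not move.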

How the data were processed

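The authors deposited a normalised H3K4me3 signal per gene for wild type and spp1, per the file headers. The design text names the spike-in as what makes the strains comparable. Bowtie2, SAMtools and bedtools with sacCer3 and ASM294v2 are named in the submitters' processing notes. The formula, the window averaged per gene, any use of the input, versions and depth stand in no source used here. The series has 4 libraries, of which 2 had levels used here.

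Systematic names gave symbols and coordinates (1-based) from RefSeq assembly R64, with 5116 of 5219 names and all 57 members matched. Strand and arm come from the systematic names. Ratios were computed from levels as deposited, with no pseudocount or filter, in Python 3.11.15 with pandas 2.3.3, and the summaries were checked on simulated data. Upstream neighbours were protein-coding genes. Medians were taken over genes, and no test was made. Members and lists were chosen with earlier results of these data known; every member could be named, and other genes by rank or position. The 180 genes of chromosome IX without an spp1 level entered no comparison.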

Additional observations from a re-analysis of the deposited data

How the results depend on the processing

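With 1 library per strain, no replicate could be left out, and no paired analysis was possible because each group has 1 library. Dividing by library totals shifts every gene alike, so it cannot move differences from all genes or contrasts between roles. Dividing each library by its own total turned the members' median log2 ratio to 0.14 and left 0 members below 25%. The pseudocount (0.201) gave -1.41 and 1 member. Thresholds of 20% and 50% gave 5 and 56 members. Background subtraction moved the difference of the members from all genes to 0.47, that of the exosome to 0.61 and that of Ski genes to 0.80. Ski genes lay 0.57 above all genes as reported, 0.39 with the pseudocount, 0.43 with the floor at the median wild-type level and 0.41 beside genes of the same level class. The difference of the members from all genes was 0.15 with the pseudocount and 0.17 with means. Over all alternatives on ratios, differences from all genes kept their sign and ranged from -0.31 to -0.023 for CPF, -0.36 to -0.073 for Nrd1-Nab3-Sen1, 0.0025 to 0.38 for CF I, 0.25 to 0.61 for the exosome, 0.17 to 0.53 for decapping, 0.14 to 0.48 for Ccr4-Not and Pan, and 0.14 to 0.81 for NMD. Means in place of medians gave 0.28 for exosome minus CPF and 0.33 for cytoplasmic decay minus nuclear 3′ end.

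Plain differences of levels, which have another unit, turned the sign for the members (-0.055, with 20 of 57 above all genes), the exosome (-0.0064), decapping (-0.10), Ccr4-Not and Pan (-0.045) and NMD (-0.072). They kept it for CPF (-0.22), Nrd1-Nab3-Sen1 (-0.26), CF I (0.0019), Ski (0.059) and the related genes (0.073). Exosome minus CPF was then 0.21 and cytoplasmic decay minus nuclear 3′ end 0.12. That scale weighs a gene by its wild-type level; the cause of the other shifts was not tested. The exclusion of GLC7 and both contrasts between roles were added after seeing the data. Read depth is unknown, so no counting error could be given for any level.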
